A study of Homo sapiens with 24 samples.

Results

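The genes described here are 33 targets of the tumour suppressor p53, taken by symbol from the 19475 genes of the count table and followed in both arms of 4 human cell lines. A549 (lung adenocarcinoma) keeps a working p53, whereas H1299 (non-small-cell lung carcinoma), K562 (chronic myeloid leukaemia) and THP-1 (acute monocytic leukaemia) lack its function. By the labels, each line had 3 knockdown libraries, from cells given a lentiviral short hairpin RNA against CBX7, and 3 control libraries, from cells given a control hairpin, 24 libraries in all. Total RNA was sequenced in paired ends from a stranded kit. One label field names an siRNA against CBX7 for every sample, controls included. CBX7 belongs to Polycomb repressive complex 1, which silences genes, and reads a histone mark with its chromodomain. The labels give neither the time of harvest nor the number of hairpins, and they do not say that replicates were separate cultures, so p-values measure only library-to-library spread, possibly technical.

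p53 is a transcription factor that is held low by the ubiquitin ligase MDM2 and released by DNA damage and other stress. It binds a response element made of a pair of 10-base repeats and switches on genes that stop the cell cycle, trigger apoptosis, repair DNA, alter metabolism and feed back on p53 itself. Several of these genes are also induced without p53, for instance SESN2 and GDF15 by the stress factor ATF4. Of the genes below, 3 feed back on p53, 9 act in growth arrest and stress signalling, 9 are death receptors or apoptosis factors, 4 repair DNA, 5 serve metabolism and mitochondria, and 3 are an RNA-binding protein, a ubiquitin ligase subunit and an adaptor.

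Start regions were searched for the response element, to show which of the genes carry p53's own motif at a start site. RefSeq start windows (GRCh38.p14, 250 bases before to 50 bases after a transcription start) were at hand for 25 of the 33 genes, and at least 7 of the 25 held a match. Any match of TP53INP1, TNFRSF10B or TNFRSF10C was left out of this count and of the list below. The 25 and the shares of all windows and genes were counted without this exclusion. The 7 is thus a lower bound and not directly comparable with those shares. A match had 20 bases in a pair of repeats of 10, the 4 invariant C and G bases, at most 3 mismatches elsewhere and at most 1 base between the repeats; the element reads the same on both strands. Of all 35116 windows 2.38% held a match, and of all 27305 genes 2.91%. The DDB2 match had no mismatch and a spacer of 1 base, those of AEN, FAS and MDM2 had 2 mismatches, and those of FDXR, GDF15 and SESN1 had 3. A match is a description of the letters and not evidence of binding. The 7 stretches are printed 5′ to 3′ on the gene's strand, with the element in capitals and its flanks in lower case. Each start named is that of the RefSeq window searched, for FAS chr10:88991431, and need not be the first or main start of the gene. A match before such a start can thus lie inside the gene.
MDM2, chr12:68808919-68808946 (+), 94 bases before its internal start: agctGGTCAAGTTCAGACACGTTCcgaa
SESN1, chr6:109009014-109009041 (-), 49 bases before an internal start: gtctGGACAAGTCTCCACAAGTCAgaaa
FAS, chr10:88991305-88991332 (+), 122 bases before the start: tcctGGACAAGCCCTGACAAGCCAagcc
AEN, chr15:88621302-88621329 (+), 34 bases before the start: agccGGGCTTGCCCGGGCATGTGGgagc
FDXR, chr17:74872992-74873019 (-), 21 bases before the start: gcccGGGCAGGAGCGGGCTTGCCCtgcg
DDB2, chr11:47214975-47215003 (+), from base 6 of the transcript: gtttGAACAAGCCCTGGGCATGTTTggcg
GDF15, chr19:18386182-18386207 (+), from base 29 of the transcript: gcacAGCCATGCCCGGGCAAGAACtc

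CBX7 went against the labels in all 4 lines. A549 libraries labelled knockdown had 54.9, 52.8 and 52.9 CPM of it, against 6.61, 6.12 and 5.71 CPM in A549 controls, where CPM is the estimated count divided by the scaled library size, on 1 scale for all 24 libraries. In H1299 it stood at 397, 383 and 374 CPM in libraries labelled knockdown, against 30.3, 29.6 and 31.3 CPM in controls. In K562 the values were 37.6, 37.4 and 38.0 CPM in libraries labelled knockdown, against 12.5, 14.0 and 12.4 CPM in controls, and in THP-1 42.4, 34.2 and 38.7 CPM, against 19.0, 15.8 and 15.5 CPM in controls. In no line did the groups overlap. Higher and lower below follow the labels, so they describe the arm in which CBX7 RNA was the more abundant. Whether group labels were exchanged, or what else raised CBX7 RNA in that arm, was not tested, and every direction of a knockdown library against a control would turn round if they were. One library stood apart from its replicates: both pairs with THP-1 knockdown replicate 2 had a chi-square per degree of freedom of 67.7 or 69.5, against at most 18.3 in the other 22 replicate pairs. Total estimated counts ran from 71.09 M to 132.5 M per library. Erythroid and monocyte markers were highest in the lines the labels name: 7 erythroid genes summed to 3310 to 3630 CPM in K562 libraries labelled knockdown and 1800 to 1930 CPM in K562 controls, and to at most 1.59 CPM elsewhere. The 7 monocyte genes summed to 843 to 944 CPM in THP-1 libraries labelled knockdown and 878 to 918 CPM in THP-1 controls. In K562 the monocyte sums were 54.7 to 58.1 CPM in libraries labelled knockdown and 81.1 to 86.7 CPM in controls, and in the lung lines at most 11.4 CPM.

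In A549, where p53 works, most of the 33 genes were higher in the libraries labelled knockdown. All 33 passed the filter on low counts; 23 rose, 4 fell and 6 were not called. The threshold was an adjusted p (Benjamini-Hochberg) of 0.05 in edgeR's quasi-likelihood test over 14980 genes. Over all genes tested 27.2% rose and 28.4% fell, 55.6% in all. In the 24-library model 6 of the 27 calls were lost, those of SPATA18 (adjusted p = 0.134), PHLDA3 (0.247), PERP (0.586), TRIAP1 (0.132), DDB2 (0.189) and TP53I3 (0.352). The median log2 fold change of the 33 was 0.35, that of all genes tested 0.01. In bulk RNA, more RNA per cell and more cells that express a gene cannot be told apart. Fibroblast markers moved with the same contrast: all 7 rose, and their summed level was 82.6 to 363 CPM in A549 libraries labelled knockdown, against 21.5 to 21.8 CPM in A549 controls, of which POSTN was at 0 in all 3. Of the 7 epithelial markers 4 fell and 2 rose. They summed to 5960 to 6180 CPM in A549 libraries labelled knockdown, against 10800 to 11000 CPM in A549 controls, and KRT8 and KRT18 made up most of these sums. The part of these cell type markers in the result was not tested. In K562 4 of 5 fibroblast markers tested rose as well, with sums of 28.6 to 64.9 CPM in libraries labelled knockdown, against 10.2 to 16.1 CPM in controls. In H1299 4 of 6 rose and 1 fell, with sums of 7.74 to 9.04 CPM in libraries labelled knockdown, against 6.63 to 7.44 CPM in controls. None of the 5 fibroblast markers tested in THP-1 was called. Among the A549 libraries labelled knockdown, replicate 1 had the least of these RNAs (COL1A2 at 14.1 CPM, against 77.2 and 87.4 CPM in replicates 2 and 3).

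In the lines without working p53 the same genes went both ways. In H1299 32 were tested, of which 12 rose and 10 fell (background 33.4% and 35.5% of 14621 genes, 68.9% in all), with a median of 0.06 against -0.00 for all genes. In K562 29 were tested, of which 13 rose and 6 fell (background 28.9% and 27.5% of 13876 genes, 56.5% in all), with a median of 0.07 against 0.01. In THP-1 32 were tested, of which 4 rose and 1 fell (background 6.3% and 3.93% of 14259 genes, 10.2% in all), with a median of 0.03 against 0.01. The shares called in H1299 and THP-1 were thus near the background. The H1299 split depended on the unit: on log2(FPKM + 1) with limma 15 rose and 8 fell. On log2 of the group mean plus 0.1, the median gene of that line shifted by 0.107 in FPKM and by 0.0393 in CPM. H1299 fold changes also followed transcript length over all genes (Spearman 0.53 over 14472 genes, a description across genes), and less so over the 32 members tested (0.17). Of the 16 longer members 7 rose and 4 fell, of the 16 shorter ones 5 and 6. The part of length in the split of the members was not tested.

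**Figure D1:**
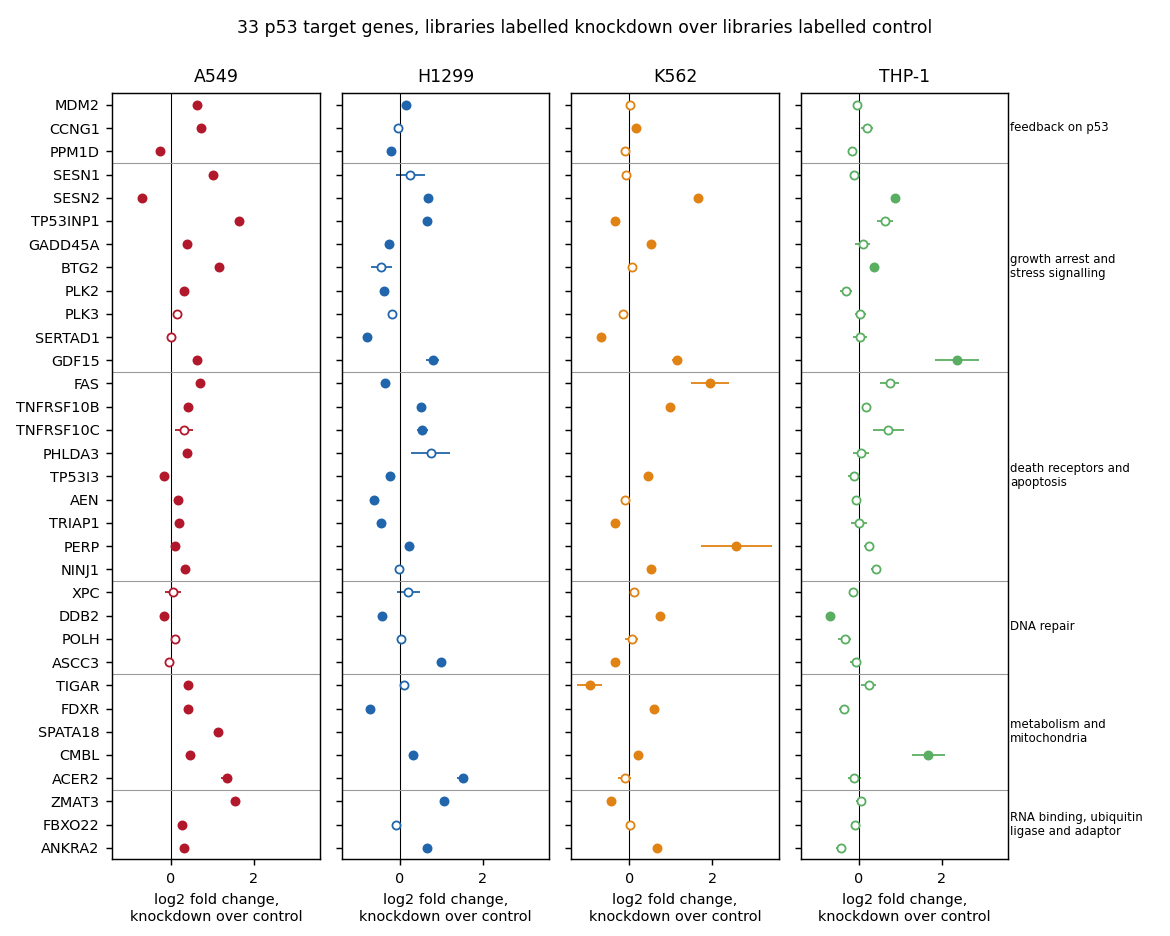
Log2 fold change (libraries labelled knockdown over libraries labelled control, ± SE) of the 33 genes in each line, grouped by role. Filled points passed an adjusted p of 0.05 and open ones did not; genes that failed the count filter have no point. In A549 23 filled points lie right of 0 and 4 left of it, and in H1299 12 and 10.

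Across the 4 lines, 2 of the 33 genes were called higher in every line, CMBL and GDF15 (0.447% of the 14980 genes tested in A549). Both rest on weak THP-1 calls: that of CMBL was lost without any 1 of 5 libraries, all but knockdown replicate 2 (adjusted p = 0.0819 to 0.13), and with a replicate block (0.098), and that of GDF15 without any 1 of 4. Another 8 rose in A549 and were called higher in no other line: SESN1, TIGAR, PHLDA3, SPATA18, PLK2, AEN, TRIAP1 and FBXO22 (background 10.4%). There were 9 that rose in A549 and fell in at least 1 other line (background 10.8%), and 3 that fell in A549 and rose elsewhere, SESN2, DDB2 and TP53I3 (background 13%). XPC, POLH and PLK3 were called in no line (background 13.1%). These counts of calls are not tests of a difference between lines, which follow further on.

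Among the genes that feed back on p53, MDM2 was the clearest in A549. Its level was 227, 241 and 235 CPM in A549 libraries labelled knockdown, against 142, 142 and 155 CPM in controls (log2 fold change 0.64 ± 0.04, SE; edgeR adjusted p = 2.64e-08). The groups did not overlap. H1299 had 121, 113 and 119 CPM in libraries labelled knockdown, against 101, 107 and 102 CPM in controls, a smaller rise (0.14 ± 0.04; edgeR adjusted p = 0.00575). K562 had 114, 116 and 118 CPM in libraries labelled knockdown, against 118, 109.7 and 109 CPM in controls, and THP-1 167, 175 and 164 CPM, against 163, 172 and 185 CPM in controls. In these leukaemia lines the groups overlapped and MDM2 was not called. CCNG1, which encodes cyclin G1, a partner of MDM2, had 118, 124 and 132 CPM in A549 libraries labelled knockdown, against 67.9, 75.5 and 76.5 CPM in controls (0.73 ± 0.05; edgeR adjusted p = 6.79e-07). Its H1299 values were 278, 287 and 286 CPM in libraries labelled knockdown, against 284, 285 and 281 CPM in controls, and were not called (-0.04 ± 0.03). In K562 CCNG1 was called at 0.16 ± 0.05 (edgeR adjusted p = 0.0205), a call lost without control replicate 2 or 3 or knockdown replicate 1 or 2 (adjusted p = 0.0701, 0.0696, 0.087 and 0.0573). This call was also lost in the 24-library model (edgeR adjusted p = 0.138). PPM1D, a phosphatase that switches p53 signalling off, fell in A549 (33.1, 33.8 and 33.8 CPM in libraries labelled knockdown, against 40.2, 39.8 and 36.7 CPM in controls; -0.25 ± 0.05) and in H1299 (-0.22 ± 0.07), the second call being lost without H1299 control replicate 1 (adjusted p = 0.0577). With limma on log2 FPKM the H1299 call was lost as well (adjusted p = 0.28 to 0.342).

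Among the growth arrest and stress signalling genes, TP53INP1 had the largest rise of the 33 in A549 and SESN2 the largest fall. Of 9 genes 6 rose and 1 fell in A549 (background 27.2% and 28.4%), 3 and 3 in H1299, 3 and 2 of 8 tested in K562 (28.9% and 27.5%), and 3 and 0 in THP-1 (6.3% and 3.93%). The H1299 shares of 33.3% each way were near the 33.4% and 35.5% of all genes. TP53INP1, a stress-induced p53 cofactor also active in autophagy, stood at 49.6, 53.1 and 53.9 CPM in A549 libraries labelled knockdown, against 16.9, 16.02 and 15.3 CPM in controls (1.66 ± 0.06; edgeR adjusted p = 2.06e-10). It rose less in H1299, with 61.4, 58.7 and 62.2 CPM in libraries labelled knockdown, against 37.4, 36.4 and 38.5 CPM in controls (0.66 ± 0.04). It fell in K562, with 23.8, 24.8 and 26.1 CPM in libraries labelled knockdown, against 32.3, 30.1 and 30.3 CPM in controls (-0.34 ± 0.06). In none of these 3 lines did the groups overlap.

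BTG2, an antiproliferative adaptor of mRNA decay, had 37.2, 37.0 and 36.6 CPM in A549 libraries labelled knockdown, against 16.6, 15.6 and 15.5 CPM in controls (1.18 ± 0.06; edgeR adjusted p = 3.49e-09). In H1299 it was near the bottom of the scale in both arms, at 0.865, 1.65 and 1.00 CPM in libraries labelled knockdown, against 1.58, 1.51 and 1.58 CPM in controls, and was not called. SESN1, a sestrin that restrains mTORC1 and whose internal start carries the element printed above, had 26.1, 25.5 and 24.4 CPM in A549 libraries labelled knockdown, against 12.4, 13.2 and 10.8 CPM in controls (1.03 ± 0.08; edgeR adjusted p = 2.99e-07). It was not called elsewhere; H1299 had 15.5, 16.4 and 12.5 CPM in libraries labelled knockdown, against 7.12, 13.8 and 15.3 CPM in controls, so that control replicate 1 stood apart.

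SESN2, the other sestrin and a known ATF4 target, moved opposite to SESN1 in A549. Its A549 levels were 32.8, 29.1 and 28.98 CPM in libraries labelled knockdown, against 48.6, 47.4 and 46.0 CPM in controls (-0.68 ± 0.06; edgeR adjusted p = 1.03e-06). In the other 3 lines it rose without overlap of the groups. K562 had 162, 161 and 152 CPM in libraries labelled knockdown, against 45.9, 49.3 and 53.9 CPM in controls (1.64 ± 0.06), H1299 41.2, 41.1 and 43.3 CPM, against 25.1, 24.7 and 26.8 CPM in controls (0.67 ± 0.05), and THP-1 28.2, 27.0 and 29.5 CPM, against 16.3, 14.6 and 15.3 CPM in controls (0.88 ± 0.09). The edgeR adjusted p was 2.94e-08 in K562, 1.88e-07 in H1299 and 0.00161 in THP-1.

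GDF15, a secreted stress cytokine induced by both p53 and ATF4, rose in all 4 lines. It had 116, 101 and 97.4 CPM in A549 libraries labelled knockdown, against 67.1, 66.0 and 63.0 CPM in controls (0.64 ± 0.07). K562 had 292, 283 and 231 CPM in libraries labelled knockdown, against 113, 118 and 127 CPM in controls (1.14 ± 0.10). The levels were low in H1299, with 3.28, 3.84 and 4.29 CPM in libraries labelled knockdown, against 2.26, 1.96 and 2.22 CPM in controls (0.78 ± 0.15), and in THP-1, with 2.39, 2.83 and 2.57 CPM, against 1.000, 0.203 and 0.342 CPM in controls (2.36 ± 0.53; edgeR adjusted p = 0.0307). The THP-1 call was lost without control replicate 2 or 3 or knockdown replicate 1 or 3 (adjusted p = 0.062, 0.117, 0.0726 and 0.0823). GADD45A, a growth arrest protein that binds PCNA, rose in A549 (0.39 ± 0.07) and K562 (0.52 ± 0.04) and fell in H1299 (-0.25 ± 0.04). The H1299 call for GADD45A was lost in the 24-library model (edgeR adjusted p = 0.142). The kinase gene PLK2 rose in A549 (0.34 ± 0.03) and fell in H1299 (-0.38 ± 0.04), and it was at 0 in 5 of the 6 K562 libraries. SERTAD1, a CDK4-binding protein, fell in H1299 (-0.79 ± 0.05) and K562 (-0.69 ± 0.09), and its A549 value was 0.00 ± 0.09.

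**Figure D2:**
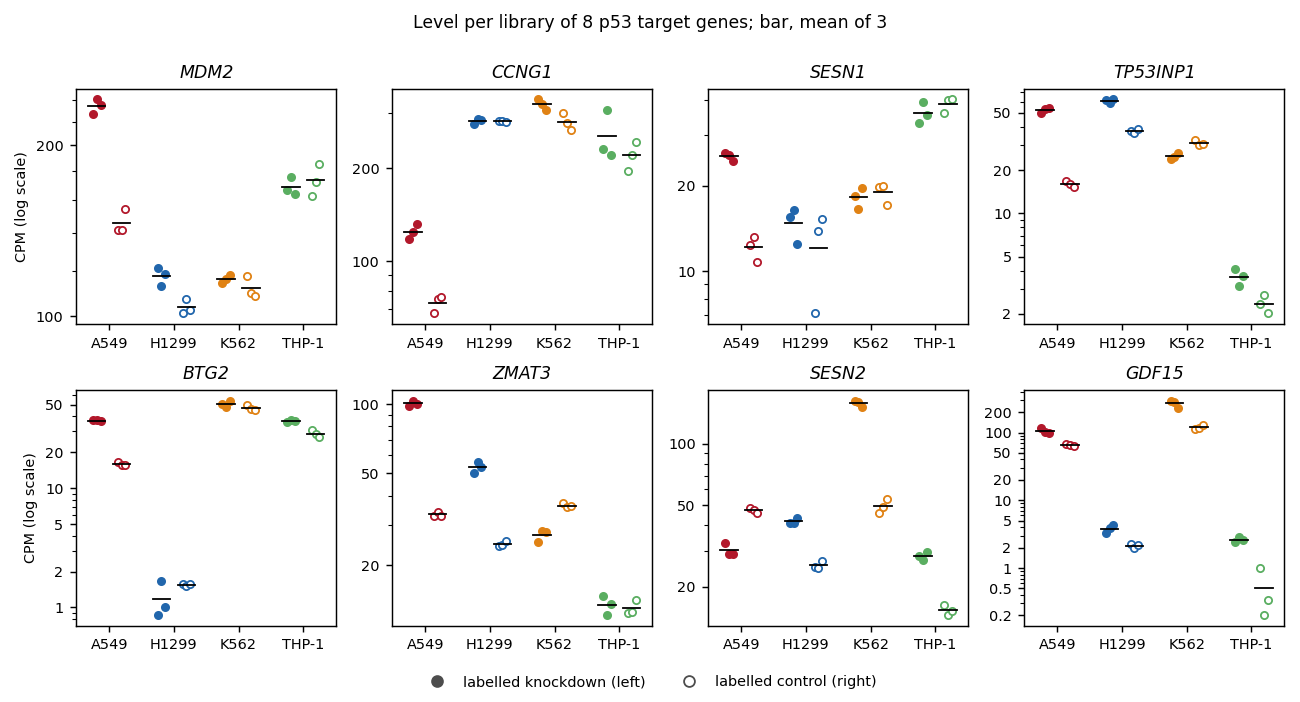
Level in CPM (log scale, a separate scale per gene) of 8 of the genes in every library, with libraries labelled knockdown as filled points left of the controls (open points) in each line and a bar at the mean of 3. In A549 the filled points lie above the open ones for every gene shown except SESN2, where they lie below.

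The death receptor and apoptosis genes mostly rose in A549, the 7 that rose by 0.11 to 0.72 on the log2 scale. Of 9 genes 7 rose and 1 fell in A549 (background 27.2% and 28.4%), 3 and 4 in H1299, 5 and 1 of 7 tested in K562 (28.9% and 27.5%), and none was called in THP-1 (6.3% and 3.93%). The H1299 shares of 33.3% and 44.4% were near the 33.4% and 35.5% of all genes. FAS, the death receptor whose start window holds one of the matches above, had 33.2, 37.1 and 37.0 CPM in A549 libraries labelled knockdown, against 20.8, 20.8 and 21.9 CPM in controls (0.72 ± 0.06; edgeR adjusted p = 7.25e-07). In H1299 it fell, with 15.98, 18.0 and 17.9 CPM in libraries labelled knockdown, against 23.1, 19.99 and 21.5 CPM in controls (-0.36 ± 0.07). The K562 rise (1.95 ± 0.46) was between low levels, 0.703, 0.704 and 0.607 CPM in libraries labelled knockdown, against 0.179, 0.177 and 0.152 CPM in controls. TNFRSF10B, the TRAIL receptor DR5, rose in A549 (267, 266 and 262 CPM in libraries labelled knockdown, against 191, 193 and 193 CPM in controls; 0.42 ± 0.03), in H1299 (0.50 ± 0.04) and in K562 (0.99 ± 0.08). Its decoy relative TNFRSF10C was called in H1299 alone (0.54 ± 0.14), at no more than 3.85 CPM in any library of that line.

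AEN, an apoptosis-enhancing nuclease, rose in A549 (89.6, 84.9 and 83.1 CPM in libraries labelled knockdown, against 75.9, 71.4 and 74.9 CPM in controls; 0.17 ± 0.04) and fell in H1299 (14.8, 13.4 and 14.6 CPM, against 20.9, 20.8 and 22.6 CPM in controls; -0.63 ± 0.07). TRIAP1, an inhibitor of apoptosis, rose in A549 (0.21 ± 0.05) and fell in H1299 (-0.46 ± 0.07) and K562 (-0.34 ± 0.06). PHLDA3, a repressor of AKT, rose in A549 (63.3, 59.8 and 59.0 CPM in libraries labelled knockdown, against 44.8, 46.0 and 43.1 CPM in controls; 0.40 ± 0.05) and was at 0 in 5 of the 6 K562 libraries. NINJ1, which ruptures the membrane of dying cells, rose in A549 (0.35 ± 0.05) and K562 (0.52 ± 0.06). PERP, a desmosome and apoptosis protein, rose in A549 (0.11 ± 0.03), in H1299 (0.22 ± 0.03) and, at no more than 0.747 CPM, in K562 (2.58 ± 0.86; edgeR adjusted p = 0.026). The K562 call for PERP was lost without control replicate 2 or knockdown replicate 1 or 3 (adjusted p = 0.0574, 0.0626 and 0.0982). Its A549 and H1299 calls were lost in the 24-library model (edgeR adjusted p = 0.586 and 0.234). TP53I3, a quinone oxidoreductase, fell in A549 (-0.16 ± 0.04) and H1299 (-0.25 ± 0.08; lost without control replicate 3, adjusted p = 0.0548) and rose in K562 (0.44 ± 0.10).

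None of the 4 DNA repair genes was called higher in A549 (background 27.2%), and DDB2 was called lower within the line (background 28.4%). DDB2, the damage sensor of nucleotide excision repair, has the response element with no mismatch, and it had 59.8, 61.4 and 59.3 CPM in A549 libraries labelled knockdown, against 66.2, 65.7 and 63.4 CPM in controls (-0.15 ± 0.04; edgeR adjusted p = 0.00518), a call lost in the 24-library model (adjusted p = 0.189). In THP-1 it was the single gene of the 33 that fell, with 18.1, 19.6 and 17.5 CPM in libraries labelled knockdown, against 32.2, 26.8 and 30.3 CPM in controls (-0.69 ± 0.10; edgeR adjusted p = 0.00632). It also fell in H1299 (-0.43 ± 0.06), and in K562 it rose, with 27.5, 26.7 and 29.6 CPM in libraries labelled knockdown, against 16.7, 16.3 and 16.4 CPM in controls (0.73 ± 0.06). No line had overlapping groups for DDB2. XPC, its partner in damage recognition, was not called; its A549 value of 0.06 ± 0.20 rested on 83.8, 78.2 and 120.0 CPM in libraries labelled knockdown, against 85.4, 85.6 and 92.7 CPM in controls, and without knockdown replicate 3 it was -0.16 (adjusted p = 0.0233). POLH, a translesion polymerase, was not called in any line. ASCC3, a helicase of alkylation repair, had 141, 132.98 and 136 CPM in H1299 libraries labelled knockdown, against 67.4, 67.1 and 67.1 CPM in controls (0.98 ± 0.03), fell in K562 (-0.34 ± 0.05) and was not called in A549 (-0.04 ± 0.03).

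All 5 genes of metabolism and mitochondria rose in A549 (background 27.2%). SPATA18, a factor of mitochondrial quality control, had 27.3, 29.5 and 26.8 CPM in A549 libraries labelled knockdown, against 11.4, 12.1 and 13.3 CPM in controls (1.15 ± 0.07), and was at 0 in every H1299 and K562 library. ACER2, an alkaline ceramidase, had 10.03, 8.06 and 7.89 CPM in A549 libraries labelled knockdown, against 2.95, 3.52 and 3.42 CPM in controls (1.36 ± 0.13), and it also rose in H1299, with 5.45, 5.75 and 5.50 CPM, against 2.01, 1.83 and 1.86 CPM in controls (1.51 ± 0.12). TIGAR, a fructose bisphosphatase that slows glycolysis, had 71.3, 77.9 and 70.2 CPM in A549 libraries labelled knockdown, against 51.9, 54.1 and 53.9 CPM in controls (0.42 ± 0.05). It fell in K562 between levels of at most 2.33 CPM (-0.95 ± 0.30; lost without control replicate 3, adjusted p = 0.055). FDXR, which passes electrons to mitochondrial cytochromes P450, rose in A549 (76.7, 71.8 and 66.8 CPM in libraries labelled knockdown, against 50.5, 51.5 and 54.7 CPM in controls; 0.42 ± 0.05) and K562 (0.59 ± 0.06) and fell in H1299 (15.2, 16.7 and 15.3 CPM, against 24.96, 24.7 and 25.9 CPM in controls; -0.72 ± 0.06). CMBL, a hydrolase, rose in A549 (0.48 ± 0.05), H1299 (0.31 ± 0.05), K562 (0.20 ± 0.04) and, at no more than 0.834 CPM, THP-1 (1.68 ± 0.40; edgeR adjusted p = 0.0378).

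The last 3 genes rose in A549 as well (background 27.2%). ZMAT3, a zinc finger RNA-binding protein that regulates splicing downstream of p53, had 98.6, 103 and 100.2 CPM in A549 libraries labelled knockdown, against 32.6, 34.2 and 32.8 CPM in controls (1.56 ± 0.04; edgeR adjusted p = 1.17e-11). H1299 had 50.4, 56.3 and 53.3 CPM in libraries labelled knockdown, against 24.2, 24.3 and 25.3 CPM in controls (1.07 ± 0.05), so the rise was not confined to the line with p53. K562 had 25.3, 28.1 and 27.8 CPM in libraries labelled knockdown, against 37.1, 35.7 and 36.0 CPM in controls, a fall (-0.45 ± 0.06). FBXO22, an F-box subunit of a ubiquitin ligase, rose in A549 only by call (107, 106 and 102 CPM in libraries labelled knockdown, against 81.7, 87.2 and 86.4 CPM in controls; 0.27 ± 0.04). ANKRA2, an ankyrin repeat adaptor, rose in A549 (0.33 ± 0.09), H1299 (0.66 ± 0.07) and K562 (0.67 ± 0.08).

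THP-1 gave the fewest calls, and they depended on single libraries. Besides SESN2, GDF15 and CMBL, BTG2 was called there, with 36.0, 37.6 and 36.9 CPM in libraries labelled knockdown, against 30.8, 28.5 and 26.7 CPM in controls (0.36 ± 0.09; edgeR adjusted p = 0.0431). The 5 calls became 3 without control replicate 1 and 2 without control replicate 2, control replicate 3, knockdown replicate 1 or knockdown replicate 3. Without knockdown replicate 2 they became 9. SESN2 and DDB2 were called under every setting tried.

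Whether the response differed between A549 and the lines without working p53 was tested as the A549 log2 fold change minus the mean of the other 3, in 1 model of all 24 libraries. The response was higher in A549 for 13 of the 33 genes and lower for 3 (background 13.9% and 18.7% of 16797 genes, 32.6% in all). The median difference of the 33 was 0.06, against -0.05 for all genes. The largest differences were those of TP53INP1 (1.36 ± 0.10), ZMAT3 (1.35 ± 0.08), BTG2 (1.19 ± 0.15) and SESN1 (1.02 ± 0.21), with edgeR adjusted p of 3.81e-09, 5.69e-11, 2.8e-06 and 0.000852. MDM2 had a difference of 0.62 ± 0.06 (edgeR adjusted p = 1.09e-07). SESN2 was lower by far in A549 (-1.73 ± 0.07; edgeR adjusted p = 7.44e-13). The differences of SPATA18, PHLDA3 and PLK2 were fitted against lines at or near 0 and are not read here. A549 is the 1 line with p53 among 4, so p53 and every other property of that line cannot be told apart.

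Against each line alone, 8 genes responded higher in A549 than in each of the other lines: MDM2, SESN1, TP53INP1, BTG2, ZMAT3, CCNG1, AEN and FBXO22 (3.42% of all 16797 genes). SESN2 responded lower in A549 than in each of them (background 4.92%). These comparisons share the A549 libraries. Against H1299 the response was higher for 16 genes and lower for 2 (background 21.5% and 22.6%, 44.2% in all), against K562 for 14 and 7 (14.3% and 20.3%, 34.6% in all) and against THP-1 for 14 and 3 (13.2% and 16.1%, 29.3% in all). For FAS the difference was 1.07 ± 0.16 from H1299 and -1.21 ± 0.21 from K562, so that its mean difference of -0.04 ± 0.13 hides opposite signs. DDB2 was similar, at 0.28 ± 0.09 from H1299, 0.58 ± 0.09 from THP-1 and -0.87 ± 0.09 from K562.

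**Figure D3:**
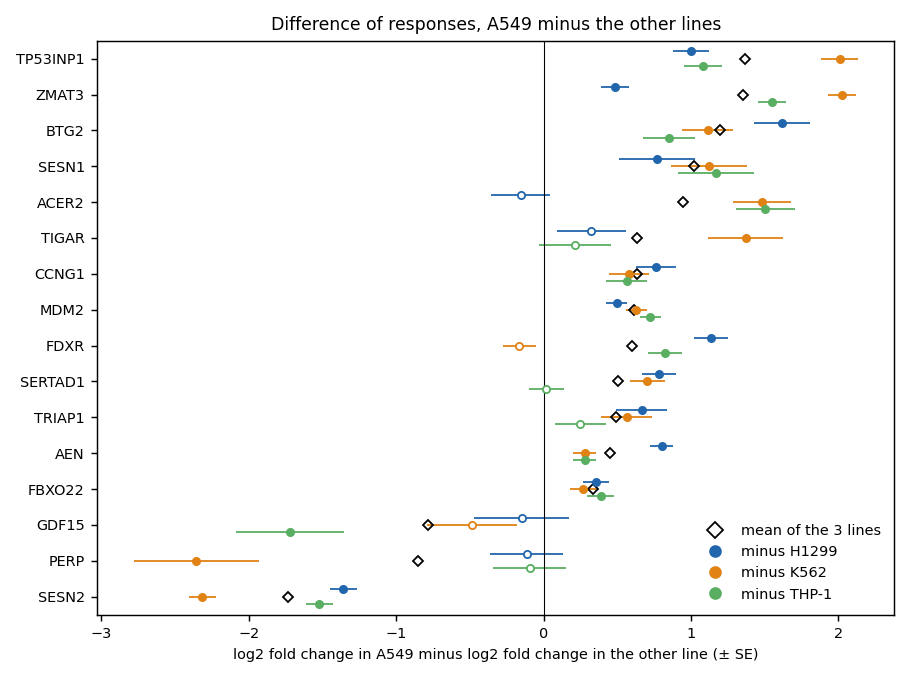
Difference of log2 fold changes, A549 minus each other line (circles ± SE, filled where the adjusted p was under 0.05) and A549 minus the mean of the 3 lines (diamonds), for the 16 genes called on the mean. TP53INP1 lies highest, with a mean difference of 1.36, and SESN2 lowest, at -1.73.

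Control levels differed between the lines too. Set against the mean of the other 3 control groups, A549 controls were higher for 26 of the 33 genes and lower for 5 (background 42.7% and 31.7% of 16797 genes, 74.4% in all), with a median log2 difference of 0.81 against 0.11 for all genes. Against H1299 alone, the other lung line, they were higher for 22 and lower for 5 (background 38.7% and 36.3%, 75% in all), with a median of 0.85 against 0.01. The mean control level was highest in A549 for 13 genes, in K562 for 10, in H1299 for 5 and in THP-1 for 5 (over all genes 26.7%, 21.7%, 25.2% and 26.4% in the same order of lines). For 12 genes every A549 control lay above every control of the other lines: TNFRSF10B, TIGAR, DDB2, PHLDA3, SPATA18, PLK2, TP53I3, AEN, PERP, NINJ1, FBXO22 and ANKRA2. This held for 20.9% of all genes. PERP, for instance, had 309, 315 and 314 CPM in A549 controls, against 129, 125 and 124 CPM in H1299, 0.128, 0.112 and 0 CPM in K562 and 29.2, 32.0 and 28.4 CPM in THP-1 controls.

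The 5 genes lower in A549 controls than in the mean of the other lines were SESN1, GADD45A, POLH, CCNG1 and SERTAD1. CCNG1 had 67.9, 75.5 and 76.5 CPM in A549 controls, against 284, 285 and 281 CPM in H1299, 301, 280.3 and 266 CPM in K562 and 196, 221 and 242 CPM in THP-1 controls. A549 controls were thus the lowest of the 4 lines, and the level of 118 to 132 CPM in A549 libraries labelled knockdown stayed below every control of the other lines. MDM2 was not highest in A549 controls: it had 142, 142 and 155 CPM there, against 101, 107 and 102 CPM in H1299, 118, 109.7 and 109 CPM in K562 and 163, 172 and 185 CPM in THP-1 controls. The SERTAD1 call was lost without any 1 of 9 libraries, the TP53INP1 call (0.20 ± 0.07) without A549 control replicate 1, and on log2(FPKM + 1) TP53INP1 and BTG2 had the opposite sign (-0.17 and -0.07).

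Some genes were silent in a line. SPATA18 was at 0 in all controls of H1299, K562 and THP-1, and its lowest A549 control, 11.4 CPM, was at least 333-fold, 299-fold and 277-fold above a floor of 3 counts in the library of each of these lines where the floor was highest. PHLDA3 and PLK2 were at 0 in all K562 controls and were at least 1130-fold and 3950-fold higher in A549 controls by the same floor. Per length, PERP was the most abundant of the 33 in A549 controls at 67.0 FPKM, against 113 FPKM for CCNG1, the most abundant in H1299 controls.

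**Figure D4:**
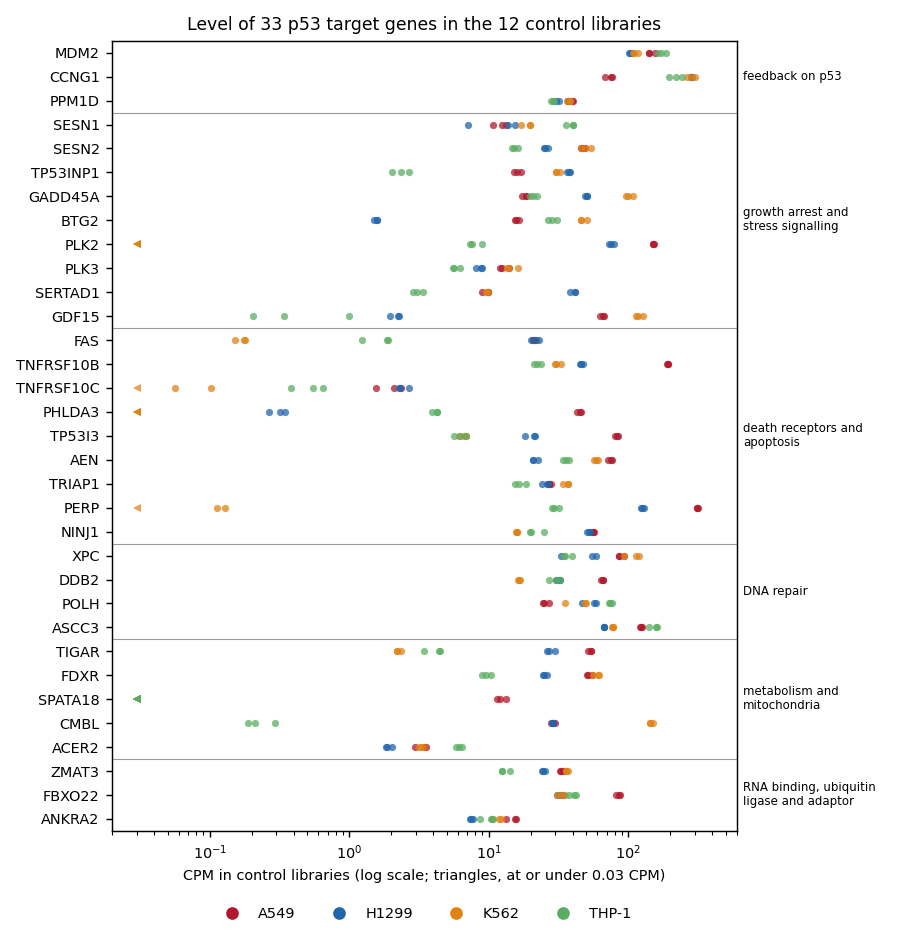
Level in CPM (log scale) of the 33 genes in the 12 control libraries, 3 points per line, with values at or under 0.03 CPM drawn as triangles at the left edge. A549 points lie right of all others for 12 genes, among them PERP, and CCNG1 is lowest in A549.

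SESN1 allowed a look at where its RNA started, since the response element lies beside its internal starts. In GRCh38 (GENCODE release 29, minus strand of chromosome 6) the transcript NM_014454 starts at chr6:109094819, NM_001199933 at chr6:109009555 and NM_001199934 at chr6:109008988. The element printed above begins 518 bases into NM_001199933, within the gene, and 85.8 kb downstream of the NM_014454 start. The internal-start transcripts together had 17.6, 16.9 and 16.7 TPM in A549 libraries labelled knockdown, against 5.22, 7.05 and 6.49 TPM in controls. This rise was in NM_001199933, which starts upstream of the element, at a mean of 15.9 against 4.64 TPM (exact permutation p = 0.1). NM_001199934, whose start the element precedes, averaged 1.19 ± 0.62 against 1.62 ± 2.13 TPM (SD, exact permutation p = 0.9). Its controls had 0, 0.820 and 4.03 TPM, against 1.895, 0.763 and 0.905 TPM in libraries labelled knockdown. The control mean thus rested on replicate 3, where NM_001199933 was lowest (2.46 TPM, against 5.22 and 6.23 TPM). No direction is read for NM_001199934. The distal NM_014454 had 5.16, 5.22 and 4.66 TPM in A549 libraries labelled knockdown, against 4.75, 3.83 and 2.50 TPM in controls. In A549 the groups were apart for the internal starts and overlapped for NM_014454. The internal starts averaged 17.1 ± 0.49 TPM in libraries labelled knockdown and 6.25 ± 0.94 TPM in controls (SD, n = 3 each). An exact two-sided permutation test gave p = 0.1, the smallest that 3 against 3 libraries allow, and p = 0.2 for NM_014454.

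The internal starts held 77.3 ± 0.89% of SESN1 in A549 libraries labelled knockdown and 63.1 ± 10.03% in A549 controls (SD, n = 3 each; exact permutation p = 0.1). In H1299 the shares were 22.9 ± 5.09% in libraries labelled knockdown and 29.6 ± 3.39% in controls (exact p = 0.2). H1299 rather had more of the distal transcript, 10.2, 10.4 and 8.85 TPM in libraries labelled knockdown, against 3.48, 6.06 and 7.13 TPM in controls (exact p = 0.1), although the median gene of that line shifted by 0.419 on the log2 TPM scale. In K562 the internal shares were 45.4 ± 14.0% in libraries labelled knockdown and 39.3 ± 17.1% in controls (exact p = 0.5), and in THP-1 35.3 ± 3.43% and 42.5 ± 6.87% (exact p = 0.3). THP-1 internal starts were lower, at 9.76, 8.27 and 10.3 TPM in libraries labelled knockdown, against 13.1, 10.4 and 13.1 TPM in controls (exact p = 0.1). Assigning reads to transcripts that share most exons is an estimate, and how reads of the shared part were split by the authors' tool limits these values.

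**Figure D5:**
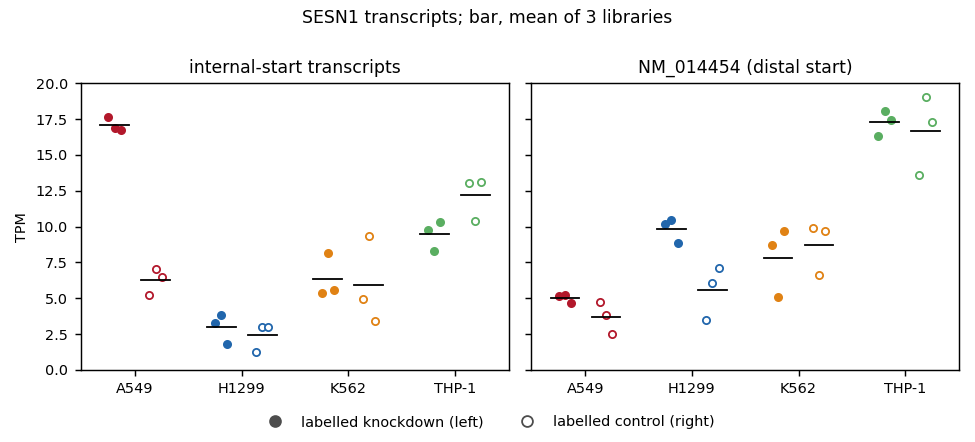
Summed TPM of the SESN1 transcripts with internal starts (left) and TPM of NM_014454 (right) in every library, libraries labelled knockdown filled and left of the controls, with a bar at the mean of 3. A549 libraries labelled knockdown lie between 16.7 and 17.6 TPM on the left, above all A549 controls, and A549 values on the right overlap.

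Other genes of the pathway are given for comparison. Of 23 further p53 targets, 12 rose and 3 fell in A549 (median 0.35), 7 and 7 of 19 tested in H1299, 9 and 6 of 22 in K562 and 3 and 3 of 21 in THP-1. The shares were 52.2% higher and 13% lower in A549, where 27.2% and 28.4% of all genes were, and 36.8% each way in H1299, near the 33.4% and 35.5% of all genes. In K562 40.9% were higher and 27.3% lower, against 28.9% and 27.5% of all genes, so the share that fell was near the background. In THP-1 the shares were 14.3% each way, against 6.3% and 3.93%. CDKN1A, the CDK inhibitor p21, had 77.0, 89.4 and 85.5 CPM in THP-1 libraries labelled knockdown, against 36.8, 32.2 and 32.6 CPM in controls (1.31 ± 0.10; edgeR adjusted p = 0.000332). It rose in the 3 other lines too, in A549 by 1.11 ± 0.04, and so not in the line with p53 alone. BAX, a pore-forming apoptosis protein, fell in H1299 (-1.10 ± 0.05), and RRM2B, a ribonucleotide reductase subunit, rose in A549 (2.13 ± 0.17). TRIM22 rose in A549 (2.19 ± 0.24), where E2F7 (-1.64 ± 0.07) and PMAIP1 (-0.70 ± 0.06) fell, although both are p53 targets. E2F7 rose in H1299 (0.70 ± 0.05), as did APAF1, the scaffold of the apoptosome (0.79 ± 0.06), whereas PIDD1 fell in H1299 (-0.98 ± 0.07), K562 (-0.61 ± 0.05) and THP-1 (-0.70 ± 0.10). In K562 CYFIP2 (3.03 ± 0.19) and DRAM1 (0.58 ± 0.06) rose and SUSD6 fell (-0.39 ± 0.06), and in THP-1 PMAIP1 rose (0.96 ± 0.17) and TNFRSF10D fell (-0.45 ± 0.12).

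The regulators of p53 were called in both directions, with 5 higher and 6 lower of 15 in A549, 5 and 6 of 16 in H1299, 3 and 4 of 15 in K562, and 0 and 1 of 15 in THP-1. In H1299 these were 31.2% and 37.5%, near the 33.4% and 35.5% of all genes, and in A549 33.3% and 40%, against 27.2% and 28.4%. In K562 they were 20% and 26.7%, against 28.9% and 27.5%, and in THP-1 0% and 6.67%, against 6.3% and 3.93%. The damage kinase gene ATM rose in A549 (0.45 ± 0.03) and H1299 (1.25 ± 0.04), and HIPK2, a p53 kinase, in A549 (0.40 ± 0.03). The p53 relative TP63 (-0.57 ± 0.05) and the acetyltransferase gene KAT5 (-0.37 ± 0.06) fell in A549. In H1299 the coactivator EP300 rose (1.54 ± 0.06), while CDKN2A (-1.14 ± 0.14) and the ribosomal protein RPL11, an inhibitor of MDM2, fell (-0.84 ± 0.03). In K562 RPL5 (0.31 ± 0.05) and CHEK2 (0.18 ± 0.06) rose and EP300 (-0.46 ± 0.05) and TP53BP1 (-0.45 ± 0.04) fell, and in THP-1 TP73 fell (-0.58 ± 0.13).

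Cell cycle genes that p53 represses through p21 and the DREAM complex were lower in A549, where 17 of 18 fell and none rose (median -1.95). These 94.4% compare with 28.4% of all genes that fell in A549. Their summed level was 1110 to 1180 CPM in A549 libraries labelled knockdown, against 4340 to 4370 CPM in A549 controls. RRM2, a ribonucleotide reductase subunit, had 32.9, 30.3 and 31.3 CPM in A549 libraries labelled knockdown, against 186, 194 and 193 CPM in controls (-2.64 ± 0.04), and the mitotic phosphatase gene CDC25C fell as well (-2.26 ± 0.09). In H1299 14 fell and 1 rose (median -0.62), 77.8% and 5.56%, against 35.5% and 33.4% of all genes. Those that fell included AURKB (-1.27 ± 0.05) and CDC20 (-1.06 ± 0.03), and MKI67 rose (0.58 ± 0.03). In K562 8 rose and 6 fell, 44.4% and 33.3%, against 28.9% and 27.5% of all genes. Among them CDC25C (0.72 ± 0.07) and AURKB (0.33 ± 0.05) were higher and RRM2 (-0.59 ± 0.04) and E2F1 (-0.23 ± 0.06) lower. In THP-1 the single call was RRM2, which fell (-0.36 ± 0.08), and this share of 5.56% was near the 3.93% of all genes.

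Genes of the ATF4 stress response, which also induces SESN2 and GDF15, were counted as well. Of these 4 rose and 9 fell of 16 in A549, 9 and 2 of 15 in H1299, 14 and 0 of 16 in K562, and 11 and 0 of 15 in THP-1. The background was 27.2% higher and 28.4% lower in A549, 33.4% and 35.5% in H1299, 28.9% and 27.5% in K562, and 6.3% and 3.93% in THP-1. By the test of each gene's difference, the response was lower in A549 than in the mean of the other lines for 14 of the 16 and higher for none (background 18.7% lower and 13.9% higher). In A549 DDIT3, the stress factor CHOP, had 13.9, 13.6 and 14.1 CPM in libraries labelled knockdown, against 23.3, 27.3 and 26.3 CPM in controls (-0.92 ± 0.07), and STC2 fell too (-0.91 ± 0.04), whereas PHGDH (0.46 ± 0.03) and ASNS (0.25 ± 0.03) rose. CHAC1, a glutathione-degrading enzyme, had 32.4, 29.3 and 31.8 CPM in K562 libraries labelled knockdown, against 1.36, 1.36 and 1.18 CPM in controls (4.55 ± 0.09). It also rose in H1299 (1.01 ± 0.11) and THP-1 (2.21 ± 0.16), as did the cystine transporter gene SLC7A11 (2.82 ± 0.08 in H1299 and 2.98 ± 0.17 in THP-1), and PHGDH rose in K562 (3.76 ± 0.04). In H1299 SLC3A2 (-0.45 ± 0.05) and ATF4 itself (-0.14 ± 0.03) fell. Of the members shared with this response, SESN2 fell in A549 and rose in the other lines, whereas GDF15 was called higher in all 4.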

How the data were processed

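The authors deposited estimated counts per gene for 24 libraries, FPKM per gene and TPM per transcript, in tables of 19475 genes and 53016 transcripts. Per the submitters' processing notes the tools were HISAT2 and StringTie and the build was hg19; versions are not given there. The estimated counts deposited by the authors heap at low values: of 39162 values from 1 to 25, 69.8% lay at a multiple of 4 or 1 above it. The number of fragments behind a count is thus not known, and no counting interval is given. Replicates differed beyond sampling noise (chi-square per degree of freedom 8.27 to 69.5 over 24 pairs, on counts divided by 4; at most 18.3 without THP-1 knockdown replicate 2).

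After rounding, estimated counts went into edgeR 4.0.16 under R 4.3.3 (TMM, filterByExpr, robust quasi-likelihood, Benjamini-Hochberg over all genes, called at 0.05), within each line on 6 libraries. Differences between lines and control levels came from 1 model of 24 libraries with 8 group means. Printed CPM use the 24-library scaling, which shifted the within-line contrast by -0.0386 (A549), -0.0425 (H1299), -0.0295 (K562) and 0.00115 (THP-1) on the log2 scale. FPKM and TPM are as the authors deposited them. The authors' FPKM were tested with limma 3.58.1 on a log2 scale, as an alternative, beside DESeq2 1.42.0, other filters, a replicate block and leaving out each library. Scripts were tested on simulated counts.

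The 33 genes and all lists were chosen with earlier results of these data known. Named were CBX7, all 33 genes and, per line and further list, the 2 highest and 2 lowest called log2 fold changes where the higher group reached 5 CPM. COL1A2, and CDKN1A, BAX and RRM2B outside that rule were chosen after their values were seen.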

Additional observations from a re-analysis of the deposited data

Results flagged for a closer look

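The response differed between A549 and the mean of H1299, K562 and THP-1 for 16 of the 33 genes, by the test of the difference itself in the 24-library edgeR model. The A549 log2 fold change exceeded the mean of the other lines by 1.36 ± 0.10 for TP53INP1, 1.35 ± 0.08 for ZMAT3, 1.19 ± 0.15 for BTG2, 1.02 ± 0.21 for SESN1 and 0.94 ± 0.16 for ACER2 (SE). The excess was 0.64 ± 0.20 for TIGAR, 0.64 ± 0.11 for CCNG1, 0.62 ± 0.06 for MDM2, 0.60 ± 0.09 for FDXR and 0.50 ± 0.10 for SERTAD1. It was 0.49 ± 0.14 for TRIAP1, 0.45 ± 0.07 for AEN and 0.34 ± 0.07 for FBXO22.

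Lower responses in A549 were found for GDF15 (-0.78 ± 0.26), PERP (-0.85 ± 0.24) and SESN2 (-1.73 ± 0.07). PERP rests on K562, where its level was at most 0.747 CPM, and its differences from H1299 (-0.11 ± 0.25) and THP-1 (-0.09 ± 0.25) were not called. GDF15 rests on THP-1 (-1.72 ± 0.37), with levels of at most 2.83 CPM there. The ACER2 difference from H1299 was -0.16 ± 0.20 and not called, and its excess was over K562 (1.48 ± 0.20) and THP-1 (1.51 ± 0.20). FDXR rested on H1299 and THP-1, TIGAR on K562. For SERTAD1 the A549 value was near 0, and the excess came from falls in H1299 and K562.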

How the results depend on the processing

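The number of the 33 genes called was 27 in A549 (27 to 28 without any 1 library, 21 to 28 under the other settings), 22 in H1299 (21 to 23 and 19 to 23) and 19 in K562 (17 to 19 and 16 to 19). The response differed for 16 genes (14 to 19 and 15 to 21), and control levels for 31 (30 to 32 and 27 to 31) and, against H1299 alone, 27 (27 and 26 to 28). Every setting in which the gene was tested kept 19 rises and 2 falls for A549, 10 and 7 for H1299, 11 and 5 for K562, and 1 and 1 for THP-1. The same held for 8 higher and 1 lower response differences. Settings whose filter dropped a gene were not counted against it. In THP-1 the 5 calls became 8 with DESeq2, 10 in the 24-library model, 3 with a replicate block, and 2 to 9 without any 1 library, the 9 being without knockdown replicate 2, which stood apart from its replicates; without it the response differed for 19 genes, 14 higher and 5 lower.

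Replicate numbers did not pair the libraries (correlations of same-numbered libraries -0.0532 to 0.0435). With a replicate block the calls were 27 (A549), 22 (H1299), 18 (K562) and 3 (THP-1), the response differed for 15, and control levels for 27 and, against H1299 alone, 26.

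The comparisons with single lines were chosen after seeing the data. Signs turned in these cases, and the cause was not tested. XPC in A549 ranged from -0.161 to 0.1736 without 1 library. In H1299 CCNG1 was 0.085 on log2(FPKM + 1), with and without a filter, and 0.085 on log2(FPKM + 0.1), and NINJ1 0.11 on both with the filter. On log2(FPKM + 1), with and without a filter, the response difference was 0.60 for FAS, 0.39 for PHLDA3, 0.95 for SPATA18, 0.54 for PLK2 and 0.22 for CMBL, and the control difference -0.17 for TP53INP1 and -0.0707 for BTG2. On log2(FPKM + 0.1) the response difference was 1.09 for SPATA18 and 0.55 for PLK2. Against H1299 alone, it was 1.07 for FAS, 0.28 for DDB2, 0.71 for PLK2 and -0.16 for ACER2. Against K562 alone it was -0.16 for FDXR, 0.29 for CMBL and 0.30 for ASCC3. Against THP-1 alone it was 0.28 for TNFRSF10B, 0.58 for DDB2 and 0.68 for PLK2. Single libraries ended the response calls of TIGAR (without A549 knockdown replicate 2, adjusted p = 0.0516) and GDF15 (without A549 control replicate 1 or 2 or knockdown replicate 2 or 3, adjusted p = 0.0516 to 0.0695). Genes under about 3 counts per library, such as SPATA18 in H1299 and K562, cannot show a response at this depth. In THP-1 SPATA18 had 23, 0 and 5 counts in libraries labelled knockdown and 0 in every control, and it failed the count filter there.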
